A study of Mus musculus with 8 samples.

Results

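The 8 genes described here encode transcription factors that mark the pancreatic and wider endodermal lineage: the nuclear receptor Hnf4a, the forkhead factors Foxa1, Foxa2 and Foxa3, the GATA factors Gata4 and Gata6, the homeobox factor Pdx1 and the SRY-box factor Sox9. They were chosen by name, with earlier results of these data known, and all 8 were found among the 49315 gene identifiers of a TPM table (transcripts per 1000000, a share of all transcripts scaled by gene length, so that levels of different genes can be set side by side). Their mRNA was read in 8 bulk RNA-seq libraries of 4 mouse pancreatic ductal adenocarcinoma lines, named 6694c2, 2838c3, 6499c4 and 6419c5. Every one of these gave 1 library with a knockout (KO) of C1galt1c1 and 1 wild-type (WT) library. C1galt1c1, also called Cosmc, encodes the chaperone of the enzyme that extends the first sugar of mucin-type O-glycans, and the comparison asks how its loss alters the transcriptome. All lines were grown in high-glucose DMEM with serum, penicillin and streptomycin. The labels do not say how the gene was knocked out, whether a KO line is a clone or a pool, or whether a culture was repeated. p-values of KO against WT therefore measure the spread between the 4 lines.

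In the embryo, Foxa and Gata factors open closed chromatin in the endoderm, Pdx1 and Sox9 are needed in pancreatic progenitors, and Hnf4a acts in a network with the Foxa factors in liver, gut and pancreas. In the adult pancreas Pdx1 is highest in beta cells, Sox9 is kept in duct cells, and Gata4 and Gata6 are found in acinar cells. In human pancreatic cancer, high GATA6 and HNF4A are known as marks of the classical subtype, and their loss as a mark of the basal-like one.

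Each library summed to 1000000 TPM. TPM keep no depth; the step size of the low values puts it at an estimated 40.6 to 62.5 (in units of 1000000 assigned reads) per library. C1galt1c1 itself was listed at 10.9, 15.3, 19.0 and 16.1 TPM in the KO libraries of 6694c2, 2838c3, 6499c4 and 6419c5, against 37.0, 40.4, 54.2 and 37.9 TPM in the WT libraries of these lines, so the groups did not overlap. The KO libraries of 6694c2 and 6419c5 stood apart: identifiers without a gene name held 12.5% and 9.69% of their TPM, against 1.22% and 1.047% in their WT libraries and 0.713% to 1.33% in the libraries of the other lines. The median of all 12900 genes tested lay at -0.15 in KO minus WT on the log2(TPM + 1) scale, so differences are also given relative to that shift. Epithelial markers summed to between 13352 and 24147 TPM in KO and between 13770 and 20015 TPM in WT libraries. Most of each sum was Krt8 (4095 to 8257 TPM), Krt18 (3874 to 6324 TPM) and Krt19 (2528 to 8038 TPM). The sums therefore say little of the other epithelial markers. The acinar genes Prss1, Cpa1, Ptf1a and Amy2a5 and the islet genes Ins1, Ins2 and Gcg were listed at 0 in all libraries. The acinar marker Cela1 was listed at 4.59 to 23.7 TPM in KO and 4.86 to 44.4 TPM in WT libraries, and the islet marker Sst at 3.13 to 7.39 TPM in KO and 3.93 to 6.35 TPM in WT libraries. The fibroblast markers summed to at most 9.77 TPM in KO and 11.8 TPM in WT libraries.

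All 8 factors were present in all 8 libraries, and none fell below 1.72 TPM, so the minimum of 1 TPM in at least 4 libraries that a gene had to reach to be tested left every one of them in. Hnf4a had the highest level of the set in each library and Foxa2 the next highest. Gata6 and Gata4 held ranks 3 to 5, and Pdx1 ranged from rank 3 to rank 7. Foxa1 was the lowest of the set in the libraries of 6694c2 and 2838c3, and Sox9 was the lowest in those of 6499c4 and 6419c5. In the KO against WT comparison the groups overlapped for every factor, as they did for all but 1.49% of the genes tested. Pdx1 and Foxa1 differed between lines past the threshold of the test, as did 16.9% of all genes tested. The call for Pdx1 held under 11 of 12 alternative settings and that for Foxa1 under 7 of 12. In bulk RNA, fewer cells that express a gene and less of its mRNA per cell cannot be told apart.

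**Figure D1:**
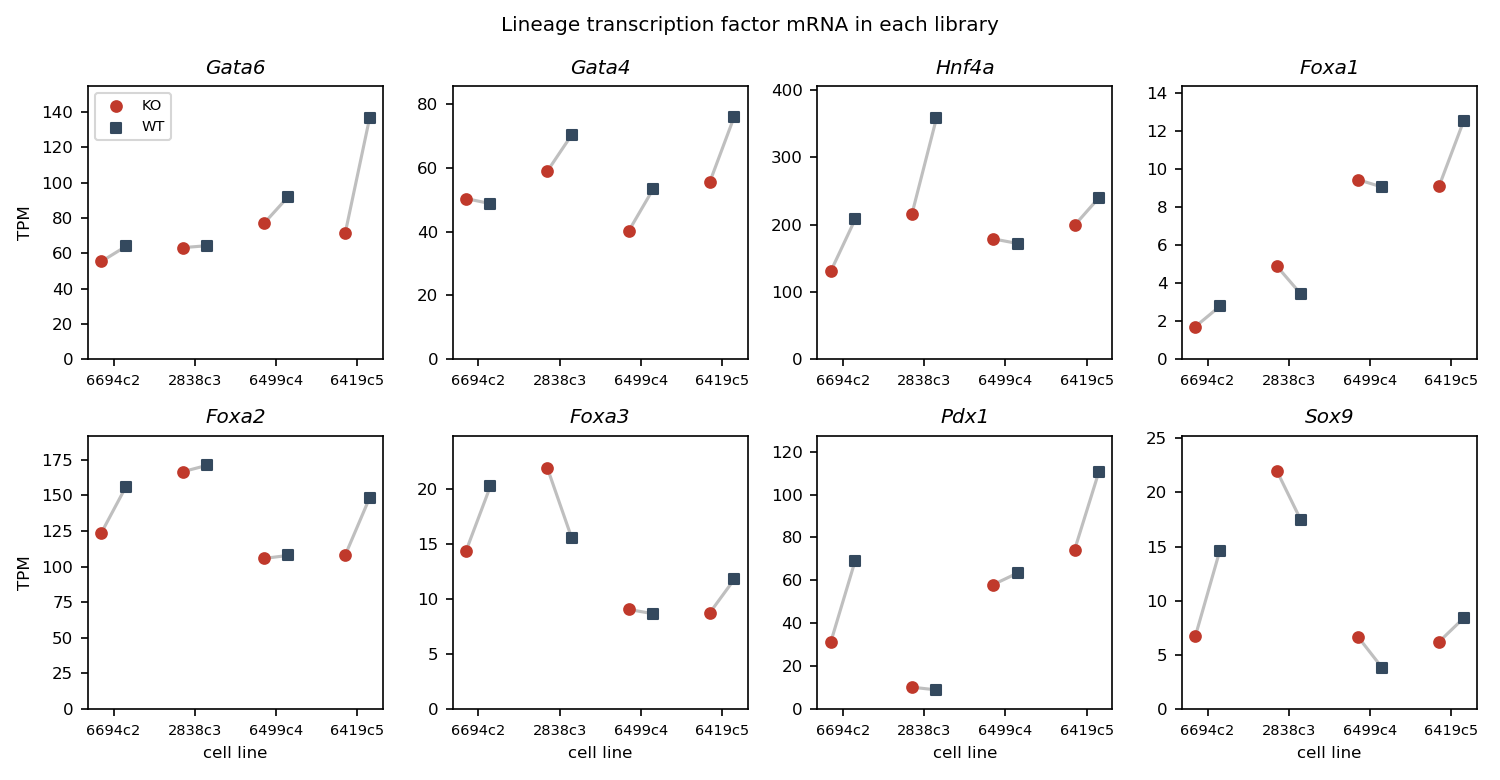
TPM (y axis, from 0, own scale per gene) of the 8 factors in each library, by cell line (x axis), with the KO library as a red circle left of the WT library as a blue square and a grey line joining the pair. Pdx1 is low in both libraries of 2838c3, Foxa1 is low in both libraries of 6694c2, and KO and WT points overlap in range for every gene.

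Hnf4a is a nuclear receptor that binds fatty acids and drives hepatocyte and enterocyte genes. It lies on chromosome 2 (chr2:163348728-163414830, plus strand, GRCm39, which is the same assembly as mm39), and its annotated main transcript has 10 exons. It is known to be transcribed from a pair of promoters used in different tissues, the upstream one being known from pancreas and gut and the downstream one from liver. Counts per gene cannot tell these apart. The upstream one is shown because Hnf4a had the highest level of the set. The stretch ends just past the gene's first annotated start. Capitals mark matches to the binding motifs of other lineage factors, the ONECUT letters ATCAATAA, overlapped by the letters AGATAA that GATA factors bind.

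Hnf4a upstream start (chr2:163348527-163348737, plus strand): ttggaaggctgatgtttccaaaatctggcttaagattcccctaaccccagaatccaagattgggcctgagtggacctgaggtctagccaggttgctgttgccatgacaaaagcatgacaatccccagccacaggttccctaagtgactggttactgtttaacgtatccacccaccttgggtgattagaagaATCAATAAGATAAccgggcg

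The motifs were searched on both strands in the 250 bases before each start and were chosen after the sequences had been read. Of 32851 RefSeq windows of this length, 0.639% held the ONECUT letters and 9.99% the letters that GATA factors bind. The windows come from RefSeq's table of the GRCm38.p6 build and were placed on GRCm39 by an exact match of their letters. A match is a description of the sequence and says nothing of binding in these cells.

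Hnf4a was listed at 131, 216, 179 and 199 TPM in the KO libraries of 6694c2, 2838c3, 6499c4 and 6419c5, against 208, 358, 172 and 240 TPM in the WT libraries. Its mean over the 8 libraries lay at the 94.7th percentile of all genes tested. The KO libraries averaged 181 ± 37.0 TPM and the WT libraries 245 ± 80.6 TPM (SD, n = 4 each), and the groups overlapped. Hnf4a was lower in KO than in WT in 3 of 4 lines and slightly higher in 6499c4. The estimated KO minus WT difference was -0.40 on the log2(TPM + 1) scale, its SE 0.17 and its 95% interval -0.81 to 0.01 (limma, adjusted p = 0.561 over all genes). Without the unnamed and structural RNA the estimate was -0.32, and without lines 6694c2 and 6419c5 it was -0.33. Under median-ratio scaling it was -0.24 (unadjusted p = 0.203, limma). By line the level ran from 2838c3 through 6419c5 and 6499c4 to 6694c2, a range of 0.75 on the log2(TPM + 1) scale, and the lines did not differ past the threshold (F-test in limma, adjusted p = 0.158). No neighbours in that order differed beyond their spread.

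The Foxa factors are winged-helix proteins that bind nucleosomal DNA, and Foxa1 and Foxa2 can stand in for each other in much of the gut endoderm, while Foxa3 is best known from liver. Foxa2 made up most of the family in every library, between 85.1% and 90.01% of the summed Foxa TPM. The remainder was divided between Foxa1 and Foxa3 in a way that differed between lines. In 6694c2 Foxa3 stood at 8.36 times Foxa1 in the KO library and at 7.28 times in the WT library. In 2838c3 the Foxa3 to Foxa1 ratio was 4.46 in the KO library and 4.54 in the WT library. In 6499c4 the ratio was 0.957 in the KO and 0.956 in the WT library, and in 6419c5 it was 0.959 in the KO and 0.940 in the WT library. The KO and WT libraries of a line thus had nearly the same make-up in 6499c4 and 6419c5.

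**Figure D2:**
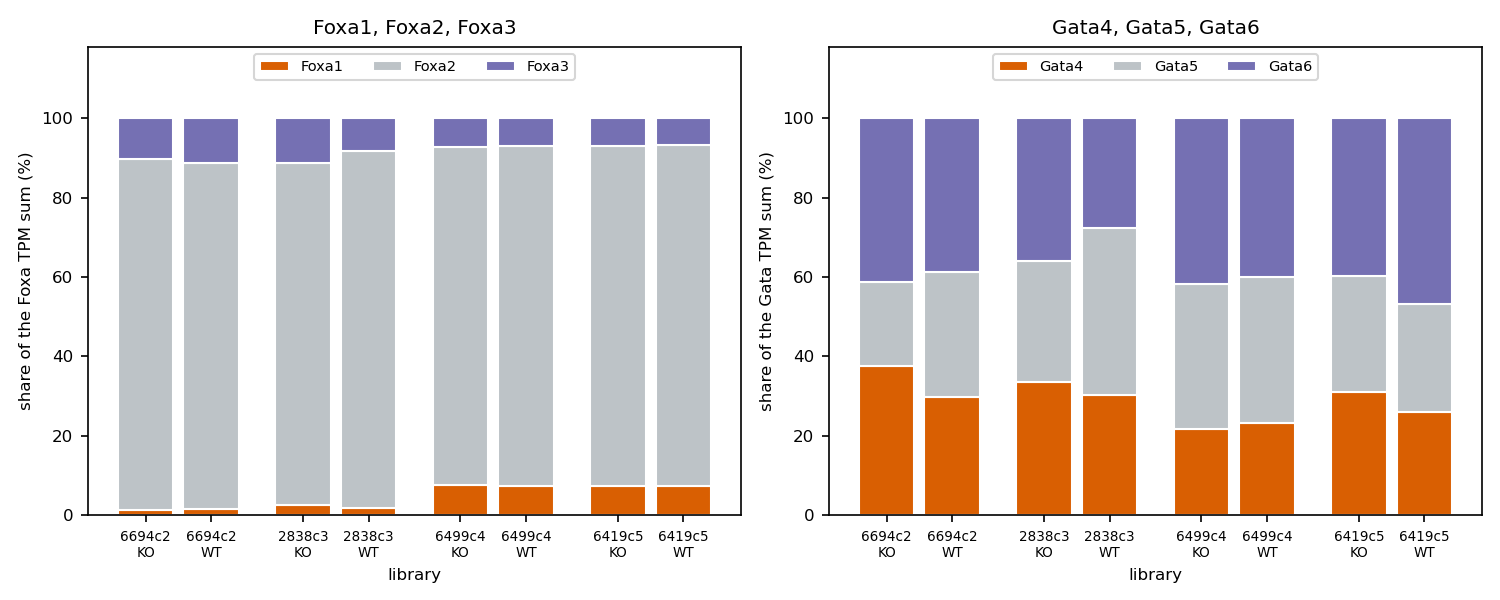
Share (%) of the summed TPM of Foxa1, Foxa2 and Foxa3 (left) and of Gata4, Gata5 and Gata6 (right) in each library, with the KO library left of the WT library of each line (x axis). Foxa2 holds 85.1% to 90.01% of its family everywhere, and the Foxa1 share is 7.23% to 7.61% in 6499c4 and 6419c5 and at most 2.54% in the other lines. The 3 Gata genes hold shares between 21.3% (Gata5 in the KO library of 6694c2) and 46.8% (Gata6 in the WT library of 6419c5).

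Foxa2 lies on chromosome 2 (chr2:147884797-147889005, minus strand, GRCm39) and was listed at 124, 167, 106 and 108 TPM in the KO libraries of 6694c2, 2838c3, 6499c4 and 6419c5, against 156, 171, 108 and 148 TPM in the WT libraries. The KO mean was 126 ± 28.2 TPM and the WT mean 146 ± 27.0 TPM (SD, n = 4 each), with overlapping groups. Foxa2 was the steadiest of the set, with a 1.62-fold span over all 8 libraries. It was lower in KO in all 4 lines, although in 2838c3 and 6499c4 only by 0.04 and 0.03 on the log2(TPM + 1) scale. The estimated KO minus WT difference was -0.21 on that scale, with an SE of 0.14 (limma, adjusted p = 0.615). It was -0.05 under median-ratio scaling, -0.08 under quantile normalization, -0.13 without 6419c5 and -0.03 without both 6694c2 and 6419c5. Under median-ratio scaling Foxa2 stood higher in KO by 0.05 in 2838c3 and by 0.11 in 6499c4 on the log2(TPM + 1) scale. Lower in KO in all 4 lines was also true of 18.5% of all genes tested, and of the 8 factors it was true of Foxa2 and Gata6. By line the order was 2838c3, 6694c2, 6419c5 and 6499c4, with no pair past the threshold and an adjusted p of 0.164 in the F-test of limma.

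Foxa1 lies on chromosome 12 (chr12:57587414-57593702, minus strand, GRCm39). It was listed at 1.72, 4.91, 9.46 and 9.13 TPM in the KO libraries of 6694c2, 2838c3, 6499c4 and 6419c5, against 2.78, 3.42, 9.07 and 12.5 TPM in the WT libraries. Both libraries of 6694c2 lay below all others, and both libraries of 6499c4 and 6419c5 lay above those of 2838c3. The lines differed in the F-test of limma, with an adjusted p of 0.0159 and a range of 1.87 on the log2(TPM + 1) scale. That F-test called 16.9% of all genes tested, and of the 8 factors it called Foxa1 and Pdx1. In single pairs, 6694c2 was below 6499c4 by 1.68 (SE 0.29, adjusted p = 0.0188 over all genes and pairs, limma) and below 6419c5 by 1.87 (SE 0.29, adjusted p = 0.013) on the log2(TPM + 1) scale. These pairs of lines differed in 9.47% and 12.1% of all genes tested. 2838c3 was below 6419c5 by 1.20 and below 6499c4 by 1.00 on that scale, which missed the threshold (limma, adjusted p = 0.0548 and 0.0865). With structural RNA left out, 2838c3 was below 6419c5 by 1.27 on that scale and passed it (limma, adjusted p = 0.0323). The F-test's call for Foxa1 ended without the filter on low values (adjusted p = 0.0638), without 6694c2 (0.0796), without 6499c4 (0.061), without 6419c5 (0.0613) and without both 6694c2 and 6419c5 (0.105). Both pair calls also ended without the filter (limma, adjusted p = 0.0682 and 0.0538). KO and WT averaged 6.31 ± 3.69 TPM and 6.95 ± 4.67 TPM (SD, n = 4 each). The estimated KO minus WT difference in Foxa1 was -0.10 (SE 0.21, limma, adjusted p = 0.869) on the log2(TPM + 1) scale, and it turned to 0.02 under median-ratio scaling, 0.06 under quantile normalization and 0.04 relative to the median of all genes.

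A Foxa1 promoter, the stretch before the RefSeq start, which lies inside the longer gene span given above, is shown because the gene differed between lines and because the window holds a forkhead motif, the kind of letters that Foxa proteins themselves bind (TGTTTAC or its reverse complement, found in 3.17% of all windows). The motif stands in capitals.

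Foxa1 promoter (chr12:57592935-57593147, minus strand): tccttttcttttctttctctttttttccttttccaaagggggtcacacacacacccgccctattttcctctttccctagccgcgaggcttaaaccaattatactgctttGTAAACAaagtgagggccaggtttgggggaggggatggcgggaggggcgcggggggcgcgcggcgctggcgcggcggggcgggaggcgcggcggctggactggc

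Foxa3 lies on chromosome 7 (chr7:18747209-18757471, minus strand, GRCm39) and was listed at 14.4, 21.9, 9.05 and 8.76 TPM in the KO libraries of 6694c2, 2838c3, 6499c4 and 6419c5, against 20.3, 15.6, 8.67 and 11.8 TPM in the WT libraries. KO averaged 13.5 ± 6.16 TPM and WT 14.1 ± 4.997 TPM (SD, n = 4 each), and the groups overlapped. Its 4 libraries of 6694c2 and 2838c3 all lay above the 4 libraries of 6499c4 and 6419c5, the opposite order to Foxa1. The lines did not differ past the threshold (F-test in limma, adjusted p = 0.0922), and no pair of lines did. Without line 2838c3 the F-test gave Foxa3 an adjusted p of 0.0463, and the pair 6694c2 and 6499c4 passed as well (limma, adjusted p = 0.0381). The estimated KO minus WT difference was -0.08 (SE 0.20, limma, adjusted p = 0.896) on the log2(TPM + 1) scale, but 0.06 under median-ratio scaling, 0.07 under quantile normalization and 0.06 relative to the median of all genes. Within lines Foxa1 and Foxa3 moved alike, both higher in KO by 0.42 and 0.47 in 2838c3 and both lower in KO by 0.48 and 0.47 in 6694c2 on the log2(TPM + 1) scale, differences of single libraries with no test.

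Gata4 and Gata6 are zinc-finger factors that bind the GATA letters and act together in early pancreas formation. The Gata6 to Gata4 ratio of TPM ran from 0.914 to 1.92 over the libraries. Gata6 (chr18:11051565-11086995, plus strand, GRCm39) was listed at 55.3, 63.2, 76.9 and 71.4 TPM in the KO libraries of 6694c2, 2838c3, 6499c4 and 6419c5, against 63.8, 64.3, 92.1 and 137 TPM in the WT libraries. The WT library of 6419c5 was the highest of the 8. KO averaged 66.7 ± 9.44 TPM and WT 89.2 ± 34.2 TPM (SD, n = 4 each), with overlapping groups. Gata6 was lower in KO in 4 of 4 lines, by 0.92 on the log2(TPM + 1) scale in 6419c5 and by 0.02 to 0.26 in the other lines. The estimated KO minus WT difference was -0.35 on that scale, its SE 0.18 and its 95% interval -0.78 to 0.07 (limma, adjusted p = 0.575). Without lines 6694c2 and 6419c5 the estimate was -0.14, against a median of -0.11 over all genes in that fit, and without 6419c5 alone it was -0.16. Under median-ratio scaling it was -0.20, and Gata6 stood higher in KO by 0.04 in 6694c2 and by 0.06 in 2838c3 on the log2(TPM + 1) scale. An opposite-strand RNA, Gata6os, shares 1154 exon bases with Gata6 and was listed at 1.33 to 6.15 TPM. The sources used here do not say whether the counting used strand, without which the reads of both genes cannot be told apart in the shared stretch.

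Gata4 (chr14:63436362-63509141, minus strand, GRCm39) was listed at 50.3, 58.9, 40.1 and 55.6 TPM in the KO libraries of 6694c2, 2838c3, 6499c4 and 6419c5, against 48.8, 70.3, 53.2 and 76.0 TPM in the WT libraries. KO averaged 51.3 ± 8.21 TPM and WT 62.1 ± 13.1 TPM (SD, n = 4 each), and the groups overlapped. Gata4 was lower in KO in 3 of 4 lines, with 6694c2 as the exception, and the estimated difference was -0.26 on the log2(TPM + 1) scale (SE 0.14, limma, adjusted p = 0.58). It was -0.11 under median-ratio scaling and -0.12 under quantile normalization. Gata4 had the narrowest span between lines of the set, 0.48 on the log2(TPM + 1) scale. By line Gata6 ran from 6419c5 through 6499c4 and 2838c3 to 6694c2, and Gata4 from 6419c5 through 2838c3 and 6694c2 to 6499c4. Neither passed the F-test for lines (limma, adjusted p = 0.174 for Gata6 and 0.208 for Gata4), and no pair of lines did. The Gata6 to Gata4 ratio of TPM was 1.92 in the KO and 1.73 in the WT library of 6499c4, and 1.28 in the KO and 1.80 in the WT library of 6419c5. It was 1.099 in the KO and 1.31 in the WT library of 6694c2, and lowest in 2838c3, at 1.07 in the KO and 0.914 in the WT library.

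Gata5, the third endodermal GATA factor, known from gut and liver, is a relative outside the set. It was listed at 28.6, 54.0, 67.4 and 53.0 TPM in the KO libraries of 6694c2, 2838c3, 6499c4 and 6419c5, against 51.8, 98.4, 85.2 and 79.2 TPM in the WT libraries. Gata5 was lower in KO in 4 of 4 lines, with an estimated difference of -0.65 on the log2(TPM + 1) scale (SE 0.15, limma, unadjusted p = 0.00343, adjusted p = 0.542), and so missed the threshold over all genes.

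Pdx1 is the homeobox factor without which no pancreas forms, and in the adult it drives insulin transcription. It lies on chromosome 5 (chr5:147206769-147212658, plus strand, GRCm39). Pdx1 was listed at 31.2, 10.2, 58.0 and 74.2 TPM in the KO libraries of 6694c2, 2838c3, 6499c4 and 6419c5, against 69.1, 8.95, 63.4 and 111 TPM in the WT libraries. Both libraries of 2838c3 lay far below all others, and the 12.4-fold span over the 8 libraries was the widest of the set. The F-test for lines gave an adjusted p of 0.00395 (limma) and a range of 3.12 on the log2(TPM + 1) scale, at the 96.5th percentile of the ranges of all genes tested. Pdx1 in 6694c2 exceeded that in 2838c3 by 2.17 on the log2(TPM + 1) scale (SE 0.32, limma, adjusted p = 0.0104). 2838c3 was below 6499c4 by 2.55 (SE 0.32, adjusted p = 0.00562, limma) and below 6419c5 by 3.12 (SE 0.32, adjusted p = 0.0026, limma) on that scale. These 3 pairs of lines differed in 4.67%, 8.35% and 9.28% of all genes tested. The neighbours 6419c5, 6499c4 and 6694c2 did not differ past the threshold, and without 2838c3 the F-test no longer called Pdx1 (adjusted p = 0.0735).

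Pdx1 averaged 43.4 ± 28.4 TPM in KO and 63.1 ± 41.8 TPM in WT libraries (SD, n = 4 each), with overlapping groups. It was lower in KO in 3 of 4 lines, most in 6694c2, where the KO minus WT difference was -1.12 on the log2(TPM + 1) scale, or -0.90 relative to the median of all genes in that line. In 2838c3 Pdx1 was higher in KO by 0.17 on that scale. The estimate over the lines was -0.41, its SE 0.23 and its 95% interval -0.95 to 0.12 (limma, adjusted p = 0.58). Without both 6694c2 and 6419c5, the lines with the largest drops, the estimate was 0.02, and without 6694c2 alone it was -0.18. The KO libraries of these lines also held the high share of unnamed identifiers, and whether that share bears on the difference was not tested. With the unnamed and structural RNA left out but all lines kept, the estimate was -0.33. Under median-ratio scaling it was -0.26, with the 6499c4 difference at 0.01. The promoter of Pdx1 is shown because the gene differed most between lines; it holds none of the motifs named here on either strand, which says only that these letters are not in this window.

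Pdx1 promoter (chr5:147206657-147206778, plus strand): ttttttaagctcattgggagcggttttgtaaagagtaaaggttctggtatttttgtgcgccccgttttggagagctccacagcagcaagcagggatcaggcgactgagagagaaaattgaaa

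Plut, an opposite-strand RNA annotated at the Pdx1 locus with no shared exon bases, had the same order of lines: 2.44, 0.871, 4.75 and 6.31 TPM in the KO libraries of 6694c2, 2838c3, 6499c4 and 6419c5, against 4.66, 0.547, 7.35 and 7.72 TPM in the WT libraries.

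Sox9 marks duct cells and pancreatic progenitors, and lies on chromosome 11 (chr11:112673009-112678586, plus strand, GRCm39). Sox9 was listed at 6.74, 22.0, 6.68 and 6.23 TPM in the KO libraries of 6694c2, 2838c3, 6499c4 and 6419c5, against 14.6, 17.4, 3.79 and 8.40 TPM in the WT libraries. The KO library of 2838c3 stood apart from the other 3 KO libraries, which lay between 6.23 and 6.74 TPM. KO averaged 10.4 ± 7.74 TPM and WT 11.1 ± 6.13 TPM (SD, n = 4 each), and the groups overlapped. The KO minus WT difference went both ways, negative in 6694c2 and 6419c5 (-1.01 and -0.38) but positive in 2838c3 and 6499c4 (0.32 and 0.68) on the log2(TPM + 1) scale. The estimate of -0.10 had the largest SE of the set, 0.29 (limma, adjusted p = 0.918), and it turned to 0.04 under median-ratio scaling, 0.06 under quantile normalization and 0.05 relative to the median of all genes. Without 6694c2 it was 0.21. By line Sox9 ran from 2838c3 through 6694c2 and 6419c5 to 6499c4. The F-test missed the threshold (limma, adjusted p = 0.0792), but passed it without 6694c2 (0.0356) and without both 6694c2 and 6419c5 (0.0169). The pair 2838c3 and 6499c4 passed it, 2838c3 being higher by 1.76 on the log2(TPM + 1) scale (SE 0.41, adjusted p = 0.047, limma), in a comparison that called 8.35% of all genes. That call ended with a pseudocount of 0.1 (adjusted p = 0.0509), without the filter (0.129), without a variance trend (0.0504) and without 6419c5 (0.089).

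Across the set, no factor changed with the knockout past the threshold in limma, and none had an unadjusted p under 0.05 with all 4 lines. With 1 line left out, the unadjusted p was 0.0261 for Hnf4a without 6499c4, and 0.0469 for Gata6 and 0.0272 for Pdx1 without 2838c3 (limma). Of all 12900 genes, 779 had an unadjusted p under 0.05 without 6499c4 (678 lower in KO) and 1641 without 2838c3 (1473 lower, limma). The adjusted threshold was passed by 0% of all genes tested, that is 0 of 12900, under the main settings and all 13 alternatives. Under the main settings 8.81% had an unadjusted p under 0.05, 7.95% lower and 0.86% higher in KO. The estimate was below 0 for all 8 factors, as it was for 76.1% of all genes, and the median estimate was -0.24 over the factors against -0.15 over all genes, on the log2(TPM + 1) scale. Relative to the median of all genes, 5 of 8 factors lay below it, where 50% of genes do by construction. They were Hnf4a (-0.25), Foxa2 (-0.06), Gata6 (-0.20), Gata4 (-0.11) and Pdx1 (-0.27), on the log2(TPM + 1) scale. None of the 8 factors lay below that median in all 4 lines, which 6.79% of genes did. The exact two-sided sign-flip test over the 4 lines cannot go below 0.125, a value reached whenever all 4 differences share a sign. Gata6 and Foxa2 reached it by being lower in KO in all 4 lines, as 18.5% of all genes tested were. Within single lines, where 1 library stands on each side and no test is possible, none of the 8 factors reached a 2-fold difference relative to that line's median. In 6694c2 2.79% of all genes were at least 2-fold higher and 3.17% lower in KO by that measure, and the same shares were 5.89% and 6.47% in 2838c3. They were smaller in 6499c4, at 1.12% and 1.26%, and in 6419c5, at 2.09% and 1.44%. The nearest to it were Pdx1 in 6694c2 (-0.90), Sox9 in 6499c4 (0.79) and in 6694c2 (-0.78), and Gata6 in 6419c5 (-0.77), on the log2(TPM + 1) scale.

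**Figure D3:**
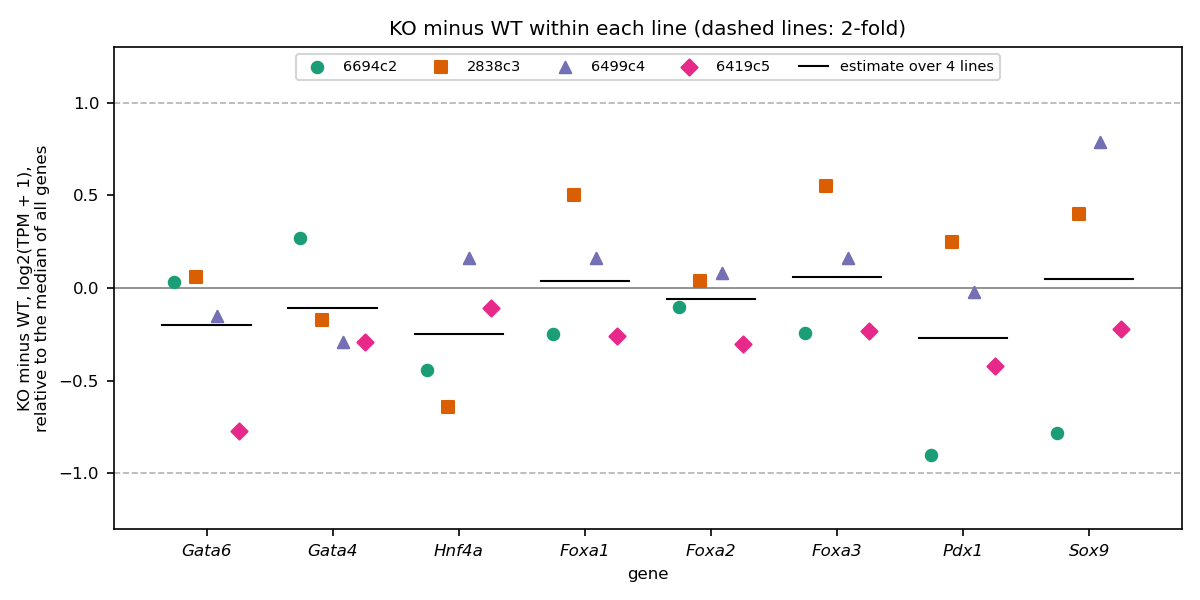
KO minus WT difference of log2(TPM + 1) within each line, relative to the median of all genes tested in that line (y axis), for the 8 factors (x axis), with 1 symbol per line, a black bar at the estimate over the 4 lines and dashed lines at a 2-fold difference. All points lie inside the dashed lines, from -0.90 for Pdx1 in 6694c2 to 0.79 for Sox9 in 6499c4.

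Between the lines, 6 of the 48 pairs of lines and factors passed the threshold (3 for Pdx1, 2 for Foxa1 and 1 for Sox9), against 8.41% of all gene and pair tests. None of the 8 factors differed between 6499c4 and 6419c5, a pair that differed in 6.59% of all genes. The median range between lines was 0.87 on the log2(TPM + 1) scale over the factors and 0.75 over all genes. Over the 8 libraries, which are 2 from each of 4 lines and so not independent, Sox9 followed Foxa2 (r = 0.91) and Foxa3 (r = 0.88), and Foxa2 followed Foxa3 (r = 0.87) on the log2(TPM + 1) scale. Gata6 was closest to Foxa1 within the set (r = 0.81), while Pdx1 ran against Sox9 (r = -0.68) and Foxa1 against Foxa3 (r = -0.69). These values describe the libraries and carry no p.

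Other transcription factors of the lineage were counted in lists, against 8.81% of all genes tested with an unadjusted p under 0.05 for KO against WT and 16.9% that differed between lines. In the list of family relatives, 3 of 7 genes were tested (Gata3, Gata5 and Hnf4g), and 2 of these differed between lines. Hnf4g, the close relative of Hnf4a known from gut, was listed at 0.471, 0.149, 3.61 and 15.0 TPM in the KO libraries of 6694c2, 2838c3, 6499c4 and 6419c5, against 0.490, 0.246, 6.62 and 27.2 TPM in the WT libraries (F-test for lines in limma, adjusted p = 0.000854). Hnf4a thus lay above Hnf4g in each library. Gata3, known from the trophoblast and T cells, reached 6.24 TPM at most, and its call between lines (adjusted p = 0.0451) ended when any single line was left out.

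Of 15 cofactors and competitors 12 were tested, 4 with an unadjusted p under 0.05, all lower in KO (7.95% of all genes), none past the adjusted threshold. They were Zfpm1, the Friend-of-GATA partner of Gata factors (-0.58, SE 0.17), the homeobox partners Pbx3 (-0.48, SE 0.19) and Meis2 (-0.46, SE 0.15), and Nr0b2, a corepressor of nuclear receptors also called SHP (-0.70, SE 0.19), each as KO minus WT on the log2(TPM + 1) scale with limma adjusted p of 0.556 to 0.561. Between lines, 6 of the 12 differed, against 16.9% of all genes. Nr0b2 was listed at 1.17, 2.42, 32.1 and 53.5 TPM in the KO libraries of 6694c2, 2838c3, 6499c4 and 6419c5, against 2.35, 7.42, 44.2 and 72.0 TPM in the WT libraries (adjusted p = 0.000446, F-test in limma). Meis3 had the opposite order, at 6.19, 5.87, 0.557 and 0.392 TPM in KO and 6.70, 6.47, 0.275 and 0.325 TPM in WT libraries of these lines (adjusted p = 0.0016, F-test in limma).

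Of 9 ductal and progenitor transcription factors 7 were tested and 1 differed between lines. That was Sox17, a factor of the extrahepatic bile duct and early endoderm, listed at 0.241, 0.476, 117 and 48.3 TPM in the KO libraries of 6694c2, 2838c3, 6499c4 and 6419c5, against 0.334, 0.271, 127 and 58.2 TPM in the WT libraries (F-test in limma, adjusted p = 0.00013). Onecut2, Hes1, Hhex and Glis3 were listed at 8.36 TPM or more in all libraries. In this list Glis3 alone had an unadjusted p under 0.05 for KO against WT (-0.49, SE 0.20, limma, adjusted p = 0.561). Of the 4 acinar factors none reached the level for testing: Ptf1a was at 0 in all libraries, Rbpjl and Nr5a2 stayed below 1 TPM, and Bhlha15 reached 3.87 TPM. None of the 13 endocrine factors was tested, and Neurog3, Nkx6-1, Pax4 and Rfx6 were at 0 in all libraries. Pdx1 was thus present at up to 111 TPM where the insulin genes and most other endocrine factors were at or near 0.

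Of 10 gut and gastric transcription factors 6 were tested, and 2 differed between lines. Cdx2, the master factor of the intestine, was listed at 12.8, 5.65, 114 and 163 TPM in the KO libraries of 6694c2, 2838c3, 6499c4 and 6419c5, against 14.7, 1.86, 127 and 245 TPM in the WT libraries (F-test in limma, adjusted p = 0.000912). Isx, an intestinal homeobox factor, was listed at 0.395, 0.218, 2.71 and 134 TPM in KO and at 0.127, 0.315, 12.8 and 241 TPM in WT libraries of these lines (adjusted p = 0.000735, ending without 6419c5 at 0.0618, limma). Klf4 stood lower in KO in 3 of 4 lines (-0.61, SE 0.26, limma, adjusted p = 0.561).

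Of 9 epithelial and squamous factors 5 were tested, 3 with an unadjusted p under 0.05 for KO against WT: Elf3 (-0.52, SE 0.13) and Ehf (-0.60, SE 0.23), both epithelial ETS factors, stood lower, and Snai2, a repressor of epithelial genes, stood higher (1.07, SE 0.34), on the log2(TPM + 1) scale with limma adjusted p of 0.556 to 0.561. Snai2 was listed at 16.2, 7.40, 1.90 and 13.7 TPM in the KO libraries of 6694c2, 2838c3, 6499c4 and 6419c5, against 2.47, 5.61, 1.17 and 5.48 TPM in the WT libraries, higher in KO in 4 of 4 lines. Its estimate was 0.38 without lines 6694c2 and 6419c5. Foxq1, a forkhead factor, stood at -0.35 with an SE of 0.25 on that scale (limma, adjusted p = 0.637). Between lines, Ehf and Elf3 differed: Ehf was at 35.1 TPM in the KO and 63.4 TPM in the WT library of 6499c4, and at most 3.12 TPM in KO and 7.69 TPM in WT libraries of the other lines (adjusted p = 0.000597, ending without 6499c4 at 0.0567, limma). The call for Elf3 ended without 2838c3 (limma, adjusted p = 0.2), without 6499c4 (0.0529) and without 6419c5 (0.0751).

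**Figure D4:**
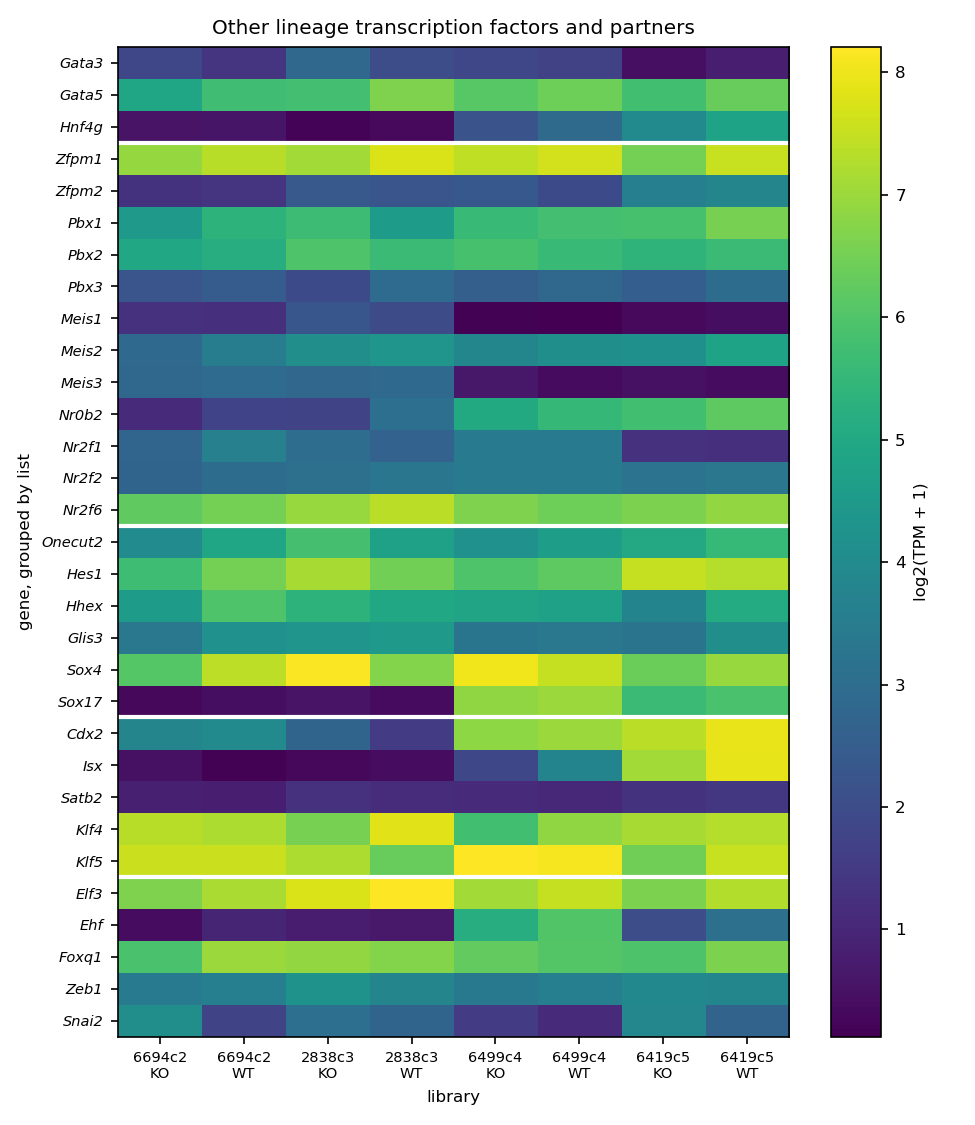
Level of tested genes of 5 lists of lineage transcription factors and partners as log2(TPM + 1) (colour), 1 row per gene grouped by list (white lines) and 1 column per library, the KO library left of the WT library of each line. Hnf4g, Nr0b2, Sox17 and Cdx2 are bright in 6499c4 and 6419c5 and Meis1 and Meis3 are dark there, while KO and WT columns of a line look alike.

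Genes of duct, liver, gut and stomach and of the classical subtype were counted in lists as well. Of 9 liver and gut genes bound by HNF4A in liver, 6 were tested and 3 had an unadjusted p under 0.05 for KO against WT, all lower in KO, as had 7.95% of all genes tested. Ambp, the precursor of alpha-1-microglobulin, was listed at 42.1, 5.72, 2.82 and 17.3 TPM in the KO libraries of 6694c2, 2838c3, 6499c4 and 6419c5, against 115, 21.7, 10.2 and 34.7 TPM in the WT libraries. It was lower in KO in 4 of 4 lines, with an estimate of -1.43 on the log2(TPM + 1) scale (SE 0.17, limma, adjusted p = 0.278). Apob, the protein of low-density lipoprotein, and Mttp, which loads lipid onto it, were also lower in KO in 4 of 4 lines (-0.68, SE 0.16, adjusted p = 0.542, and -0.63, SE 0.18, adjusted p = 0.556, limma). Fabp1, a fatty acid binding protein, was higher in KO in 3 of 4 lines, at 2.08, 0.283, 21.0 and 4.66 TPM in the KO libraries of 6694c2, 2838c3, 6499c4 and 6419c5, against 3.29, 0.146, 8.02 and 1.304 TPM in the WT libraries. Apoa1 stood at -0.92 with an SE of 0.46 (limma, adjusted p = 0.575). The median estimate of the 6 genes was -0.65 on that scale, against -0.15 over all genes and -0.40 for Hnf4a itself. Relative to all genes in each line, their median was -0.49, -0.49, -0.18 and -0.40 in 6694c2, 2838c3, 6499c4 and 6419c5. For Hnf4a the same measure was -0.44, -0.64, 0.16 and -0.11. The list was chosen with earlier results of these data known. It holds Ambp, whose adjusted p of 0.278 equalled the lowest over all genes tested (limma). The count and the median of the list are therefore a description and no independent test. A link between these genes and the level of Hnf4a was not tested.

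Of 10 ductal genes 9 were tested, 2 with an unadjusted p under 0.05, both lower in KO: the water channel Aqp1 (-1.09, SE 0.27) and the mucin Muc1 (-0.58, SE 0.17), on the log2(TPM + 1) scale (limma, adjusted p = 0.556 each). Cldn4, a tight-junction gene, stood at 0.81 with an SE of 0.44 on that scale (limma, adjusted p = 0.581). Krt7, a duct keratin, and Muc1 differed between lines (F-test in limma, adjusted p = 0.000319 and 0.00262), both lowest in 6694c2, and the call for Muc1 ended without 6694c2 (0.336). Of 18 genes of the classical subtype and gastric list in the table, 17 were tested, 4 with an unadjusted p under 0.05, all lower in KO: Tff2 (-0.73, SE 0.20), Tspan8 (-0.53, SE 0.16), Vsig1 (-0.75, SE 0.18) and Vil1 (-0.62, SE 0.24), on the log2(TPM + 1) scale with limma adjusted p of 0.547 to 0.561. The estimate was below the median of all genes for 15 of the 17, where 50% of all genes lie. By line, their median relative to all genes was -0.11 in 6694c2, -0.67 in 2838c3, -0.35 in 6499c4 and 0.21 in 6419c5. The 4 genes with an unadjusted p under 0.05 compare with 7.95% of all genes that were lower in KO by that measure. Between lines 11 of the 17 differed, against 16.9% of all genes, and the trefoil gene Tff2, a gastric mucosal peptide, was at 228, 63.6, 1.32 and 4.71 TPM in the KO libraries of 6694c2, 2838c3, 6499c4 and 6419c5, against 347, 149, 3.39 and 5.47 TPM in the WT libraries (F-test in limma, adjusted p = 0.000183). Cldn18, a gastric claudin, was at 179 TPM in the KO and 208 TPM in the WT library of 6499c4 and at most 0.993 TPM in KO and 1.48 TPM in WT libraries of the other lines (adjusted p = 0.00013, ending without 6499c4 at 0.458, limma).

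The genes whose pattern over the 8 libraries was most like each factor were searched among 11379 named protein-coding genes by Pearson's r of log2(TPM + 1), a description with 2 libraries from each of 4 lines. They were Dgkz, Uqcc1 and Mavs for Hnf4a (r = 0.968, 0.966 and 0.963), and Glis3, Nfix and Zfp106 for Foxa2 (r = 0.979, 0.976 and 0.963). For Foxa1 they were Il11ra1, St3gal3 and Unc119 (r = 0.993, 0.991 and 0.991), and for Foxa3 Exoc2, Pcif1 and Arhgap8 (r = 0.984, 0.983 and 0.973). For Gata6 they were Coq8a, Akap13 and Ache (r = 0.972, 0.967 and 0.963), and for Gata4 AI597479, Tomm20 and Asb1 (r = 0.977, 0.969 and 0.965). For Pdx1 they were Chic1, Tsc22d3 and Tmem143 (r = 0.983, 0.982 and 0.981), and for Sox9 Mtcl2, Sh3rf1 and Prkcd (r = 0.977, 0.977 and 0.974). Glis3 alone of these 24 genes also stands in a list above. None of the 8 factors was among the closest genes of another.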

How the data were processed

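Polyadenylated RNA of 8 cultures was captured on oligo(dT) beads and sequenced as paired ends, per the labels' protocols. The authors deposited TPM. The submitters' processing notes name STAR 2.7.11b, cutadapt 5.1, DESeq2 2.11.40.8 and featureCounts 2.1.1 and the build mm39. How the TPM were made, with which gene lengths and whether strand was used: not given in the sources used here. The ERCC spike-in was not used.

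Gene names and positions came from GENCODE vM39 (45505 of 49315 identifiers named). Genes with at least 1 TPM in at least 4 libraries were tested: 12900, of which 136 have no name. In R 4.3.3, limma 3.58.1 took log2(TPM + 1) with terms for genotype and line and a variance trend. Benjamini-Hochberg adjustment ran over all genes, or over all genes and the 6 pairs of lines, and the threshold was 0.05. The log2(TPM + 1) scale understates the change of low genes. Line is a block because the KO and WT libraries of a line share it; their deviations from the group means correlated at 0.66, 0.42, 0.79 and 0.75. Line tests rest on 2 libraries per line, 1 of each genotype. Low values came within 0.1 of a whole read for 69.7% to 72.8% of them, so no count test was run and depths are estimates from annotated lengths; 1 read in 2000 bases is worth 0.0382 to 0.0558 TPM. On simulated data with 12900 genes the KO against WT fit recovered 51% of genes changed by 1 and 78% of those changed by 2 (log2, 100 genes each), with 6 false calls, and the line F-test 58% with 2 and 92% with 4. The pair tests recovered 90% with 4, with 25 false calls. In the simulation all other line and genotype effects were 0 and residual spreads were shuffled over genes. These rates therefore need not hold for the data here.

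3 genes that the lists hold are not reported here. Members and lists were chosen with earlier results of these data known. The genes named are the 8 factors, of each list up to 4 with the smallest unadjusted p for KO against WT and up to 2 with the largest F for lines, and the 3 closest in pattern to each factor. Alternatives are a pseudocount of 0.1, no filter, a minimum of 5 TPM, median-ratio scaling, quantile normalization, unnamed and structural RNA left out, no variance trend, no block, and lines left out. RefSeq promoter windows of 250 bases were found for 5 factors (Hnf4a, Foxa1, Foxa2, Foxa3 and Pdx1); the printed stretch ends 10 bases into the first annotated UTR where one lies inside the window. Python 3.11.15, pandas 2.3.3, numpy 2.4.6, scipy 1.17.1 and matplotlib 3.10.9 were used.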

Additional observations from a re-analysis of the deposited data

Results flagged for a closer look

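For 6 of the 8 factors the KO minus WT difference went up in at least 1 line and down in another. Of all genes tested, 18.5% were lower in KO in all 4 lines. The share of all genes with mixed directions was not counted, so the 6 factors are not set apart from other genes. With 1 library on each side the differences between lines were not tested. The widest gap was that of Sox9, 1.69 on the log2(TPM + 1) scale between 6499c4, higher in KO, and 6694c2, lower in KO. Pdx1, Foxa3 and Foxa1 each had their gap between 2838c3, higher in KO, and 6694c2, lower in KO, of 1.29, 0.94 and 0.90 on that scale. The gap of Hnf4a was 0.78, between 6499c4, higher in KO, and 2838c3, lower in KO. The gap of Gata4 was 0.49, between 6694c2, higher in KO, and 6419c5, lower in KO. Gata6 and Foxa2 were lower in KO in all 4 lines in the TPM as deposited, though not under median-ratio scaling.

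The Sox9 level of 22.0 TPM in the KO library of 2838c3 lay far from the other 3 KO libraries, a gap that took up a share of 0.967 of the group's range. Groups of 4 were checked for this 16 times. Chance gives a gap at or past the limit of the check in about 1 of 20 groups. That rate is for the limit, and the rate for a share as large as 0.967 was not computed. The same line also had the highest Sox9 among the WT libraries, at 17.4 TPM.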

How the results depend on the processing

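No gene passed the adjusted threshold for KO against WT under the main settings or any of the 13 alternatives, no replicate block among them, where 0 genes passed and 210 had an unadjusted p under 0.05, against 1137 with the pairing by line. The 1137 were 111 higher and 1026 lower in KO; under median-ratio scaling they were 297 and 349, and under quantile normalization 322 and 333. The signs of Foxa1, Foxa3 and Sox9 hung on the scaling and on single lines. Under median-ratio scaling KO minus WT was 0.02, 0.06 and 0.04 for them, under quantile normalization 0.06, 0.07 and 0.06, and without 6694c2 0.02, 0.05 and 0.21, on the log2(TPM + 1) scale. Foxa3 was at 0.02 without 6419c5. Without both 6694c2 and 6419c5 Foxa1 was at 0.24, Foxa3 at 0.26, Sox9 at 0.50 and Pdx1 at 0.02. Small differences between lines also turned: Gata6 in 6694c2 minus 2838c3 to 0.05 and Foxa3 in that pair to 0.03 under median-ratio scaling, to 0.04 and 0.02 under quantile normalization, Gata4 in 2838c3 minus 6419c5 to 0.01 under median-ratio scaling, and Hnf4a in 6694c2 minus 6499c4 to 0.00 without structural RNA. The cause was not tested. The lines differed in 2178 genes, in 871, 903, 1465 or 3708 with 6499c4, 6419c5, 6694c2 or 2838c3 left out, and in 944 without 6694c2 and 6419c5, where fewer libraries enter. With a pseudocount of 0.1, which widens differences of low genes, the genes at least 2-fold different within a line numbered 1285 against 769 in 6694c2, 616 against 307 in 6499c4 and 788 against 455 in 6419c5. Foxa1 rests on the fewest reads of the set, an estimated 65 in the KO library of 6694c2.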
